A study of Arabidopsis thaliana with 8 samples.

Results

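AS1 (AT2G37630) and SMAX1 (AT5G57710) are 2 regulators of shoot development whose mRNAs were less polysomal in eif3h seedlings than in the wild type (WT) in both replicates. They were chosen by that measured loss, the change of the PL to NP ratio, which is therefore described here without a test of the genes. Each gene was represented by 1 probe set, out of 22746 probe sets without controls and 11373 that passed the filter on signal, and both members passed it. Neither probe set had a name in the platform annotation used here, and both were named through the gene list of the study. The compared plants were eif3h, which carries the eif3h-1 allele, and WT, both taken as the pooled aerial parts of 10-day-old seedlings from continuous light. The eif3h-1 allele is a T-DNA insertion after which eIF3h, a subunit of the initiation factor eIF3, lacks its C-terminal part, and the mutant stands for this 1 allele. Extracts were separated on sucrose gradients into polysomal RNA (PL), which carries multiple ribosomes, and non-polysomal RNA (NP), which holds free mRNAs and monosomes. Each fraction was hybridized to an Affymetrix ATH1 array, with 2 gradients for eif3h and 2 for WT, prepared on different days, and therefore 8 arrays in 4 groups.

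AS1 is a MYB-domain transcription factor of the leaf primordium. Together with the LOB-domain protein AS2 it represses KNOX homeobox genes such as KNAT1, which keep meristem cells undifferentiated, and as1 mutants form lobed leaves. SMAX1 belongs to a family of proteins related to the HSP101 chaperone. It acts as a repressor in karrikin signalling, where the receptor KAI2 and the F-box protein MAX2 direct its removal, and loss of SMAX1 suppresses seedling phenotypes of max2 mutants. The number of ribosomes on an mRNA depends on how often translation starts and how fast it proceeds, so the distribution of an mRNA between PL and NP is commonly read as its translation state. eIF3 binds the small ribosomal subunit during initiation.

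All arrays had been scaled to the same trimmed mean, and their medians ranged from 185.75 to 277.0. RCA, the Rubisco activase of green tissue, lay above at least 99.5% of probe sets on every array. The root β-glucosidase PYK10 had signals of 1812.6 to 9267.5, above at least 92.3% of probe sets, and the part of this transcript in the results was not tested. CLV3, a marker of the stem cells of the shoot apex, had signals of 4.9 to 52.8, below the median of every array. The other 16 of the 19 fixed marker entries had no named probe set here. TIF3H1 (AT1G10840), the mutated gene, had PL signals of 213.4 and 192.4 in eif3h, against 1277.3 and 1148.7 in WT, and NP signals of 1897.3 and 1949.6 in eif3h, against 2160.1 and 1732.5 in WT. Where its probes lie with respect to the T-DNA is not stated in the sources read for this work.

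AS1 moved in both fractions. In polysomal RNA its signal was 1628.5 and 950.9 in eif3h (replicates 1 and 2), against 2437.3 and 1762.9 in WT. In non-polysomal RNA it was 4060.8 and 2405.6 in eif3h, against 2234.1 and 1641.6 in WT. Both eif3h arrays were thus below both WT arrays in PL and above both WT arrays in NP, so that the genotypes did not overlap in either fraction. Such a pattern in PL was seen in 29% of all tested probe sets, in NP in 29.2%, and in both fractions together in 3.44%. The AS1 probe set was bright on all arrays, with 5.03 to 15.8 times the median of its array.

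**Figure D1:**
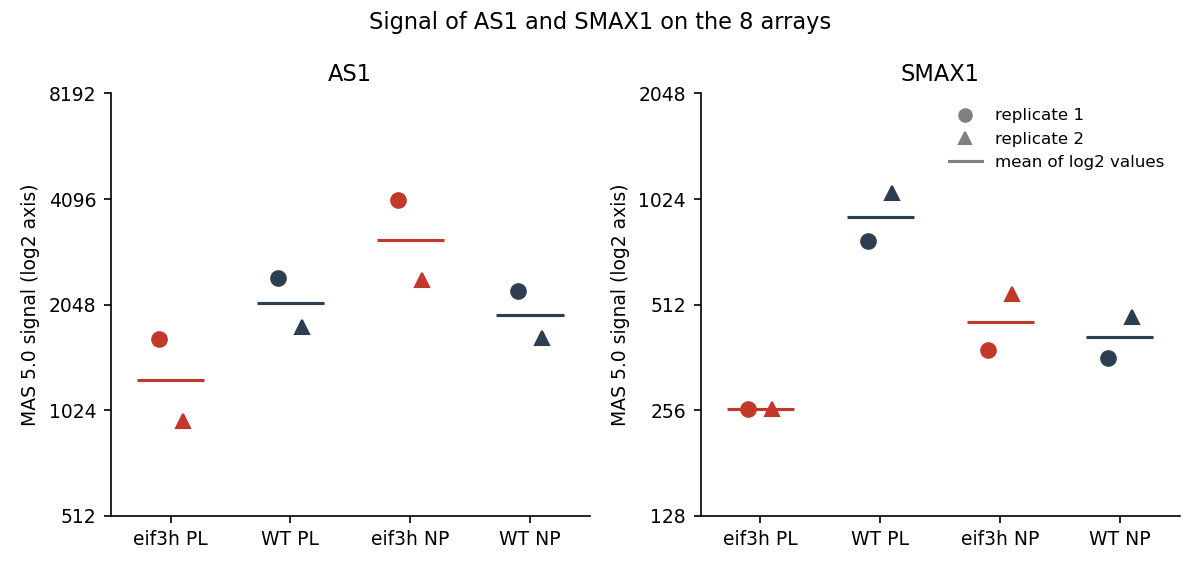
MAS 5.0 signal (log2 axis) of AS1 and SMAX1 on each of the 8 arrays, with circles for replicate 1, triangles for replicate 2 and lines at the mean of the log2 values. For AS1 the eif3h arrays sit below WT in PL and above WT in NP, whereas for SMAX1 the eif3h arrays sit at 258.1 and 258.2 in PL and overlap WT in NP.

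SMAX1 moved in the polysomal fraction. Its PL signal was 258.1 and 258.2 in eif3h, against 777.2 and 1066.5 in WT, which is 3.01-fold and 4.13-fold higher in WT. Its NP signal was 381.2 and 550.5 in eif3h, against 360.9 and 471.4 in WT. The genotypes were well apart in PL and overlapped in NP. In PL of eif3h the SMAX1 probe set lay at percentiles 57.3 and 57.2 of its array, compared with 81.2 and 86.4 in PL of WT, and it was above the array median in every group. In these whole aerial parts, fewer cells that hold an mRNA and less of it per cell cannot be told apart.

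The order of the groups differed between the genes. For AS1 the mean log2 signal was 10.28 ± 0.55 in PL of eif3h and 11.02 ± 0.33 in PL of WT, and 11.61 ± 0.53 in NP of eif3h and 10.90 ± 0.31 in NP of WT (SD, n = 2 each). NP of eif3h was thus followed by PL of WT, NP of WT and PL of eif3h. The arrays of the WT groups overlapped between PL and NP, although within each WT gradient PL was above NP, by 0.13 and 0.10. AS1 was higher in replicate 1 than in replicate 2 in every group. For SMAX1 the mean was 8.01 ± 0.0004 in PL of eif3h and 9.83 ± 0.32 in PL of WT, and 8.84 ± 0.37 in NP of eif3h and 8.69 ± 0.27 in NP of WT. PL of WT was highest and PL of eif3h lowest. The NP arrays of SMAX1 overlapped between eif3h and WT, although eif3h was above WT within each replicate, by 0.08 and 0.22 in the deposited scaling, whereas all arrays of PL of eif3h and PL of WT stood apart from the NP arrays. SMAX1 was lower in replicate 1 than in replicate 2 in every group other than PL of eif3h, where the replicates were almost equal.

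The translation state is log2 of PL over NP within a gradient. For AS1 it was -1.32 and -1.34 in the eif3h gradients, against 0.13 and 0.10 in the WT gradients. The PL signal of AS1 was therefore 0.401 and 0.395 times the NP signal in eif3h, and 1.09 and 1.07 times in WT. Relative to all tested probe sets, AS1 sat at percentile 7.09 of the mean translation state in eif3h and at percentile 56.3 in WT. For SMAX1 the translation state was -0.56 and -1.09 in the eif3h gradients, against 1.11 and 1.18 in the WT gradients. SMAX1 was at percentile 18.8 in eif3h and, as one of the more polysomal mRNAs, at percentile 94.1 in WT. The replicates of AS1 lay close together in both genotypes (SD 0.015 in eif3h and 0.016 in WT, n = 2 each), while those of SMAX1 were spread in eif3h (SD 0.37) and close in WT (SD 0.050). In 32.2% of tested probe sets, both eif3h gradients had a lower translation state than both WT gradients, as both genes did.

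**Figure D2:**
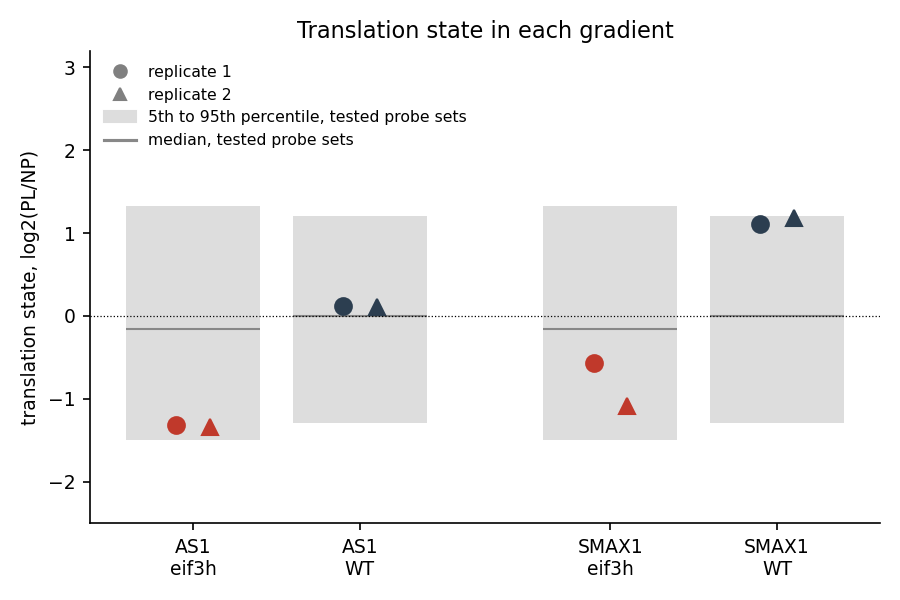
Translation state, log2 of PL over NP, of AS1 and SMAX1 in each gradient of eif3h (left in each pair) and WT, with the range from the 5th to the 95th percentile of the tested probe sets in grey and their median as a line. AS1 lies near the lower edge in eif3h and near the median in WT, and SMAX1 lies below the median in eif3h and near the upper edge in WT.

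The change of translation state is the value in eif3h minus that in WT. For AS1 it was -1.44 in replicate 1 and -1.44 in replicate 2, a 2.72-fold loss, at rank 129 from the lowest of 11373. The 2 replicates differed by 0.0019, and 0.211% of tested probe sets had a smaller gap between replicates. How small this gap was depended on the scaling of the arrays. The SD of the AS1 change (n = 2) was 0.0014 for the signals as used here. It rose to 0.053 when arrays were centred on their medians, and was 0.0084 under quantile normalization. For SMAX1 the change was -1.67 in replicate 1 and -2.27 in replicate 2, with a mean of -1.97 (SD 0.42, n = 2), a 3.92-fold loss at rank 47. The median change over all tested probe sets was -0.12, so the values relative to it were -1.32 for AS1 and -1.85 for SMAX1. A loss over 2-fold in both replicates was met by 1.79% of tested probe sets. As a background over all tested probe sets, 0.0352% had a lower and 0.0176% a higher change at an adjusted p under 0.05 in limma with replicate blocks, and 0.615% had a lower change with the gradient as a block.

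The loss divided between the fractions in different ways. For AS1 the genotype difference (eif3h minus WT, log2) in PL was -0.58 in replicate 1 and -0.89 in replicate 2, with a mean of -0.74 (SD 0.22, n = 2). In NP it was 0.86 and 0.55, with a mean of 0.71 (SD 0.22). The PL fraction thus carried 51.0% of the change of AS1, with 40.3% in replicate 1 and 61.8% in replicate 2. The replicates differed in which fraction carried the larger part, although the PL difference minus the NP difference was nearly the same in both. For SMAX1 the difference in PL was -1.59 and -2.05, with a mean of -1.82 (SD 0.32). In NP it was 0.08 and 0.22, with a mean of 0.15 (SD 0.10), which turned to -0.0031 after quantile normalization and to -0.10 after median centring of the arrays. The PL fraction carried 92.3% of the change of SMAX1, with 95.3% in replicate 1 and 90.1% in replicate 2.

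The 2 genes can be placed among the probe sets with similar loss. Apart from AS1 and SMAX1, 202 tested probe sets had a change below -1 in both replicates. Of these, 65 (32.2%) were like AS1 in that eif3h was below WT in PL and above WT in NP with no overlap, and 58 (28.7%) were like SMAX1 in that this held in PL and not in NP. In a further 74, eif3h was above WT in NP without overlap but was not below WT in PL without overlap. The remaining 5 met neither condition. Over all tested probe sets, 3.44% had the pattern in both fractions. Whatever the other fraction did, 29% had it in PL and 29.2% had it in NP. The 202 probe sets were picked by the change itself, so these counts are a description. The median share carried by PL was 47.1%, with quartiles of 14.6% and 75.2%. Of the 202 probe sets, 108 had a smaller PL share than AS1, close to the middle, and 173 had a smaller share than SMAX1. Among all tested probe sets the PL difference of SMAX1 ranked 137 from the lowest and that of AS1 ranked 1244. The NP difference of AS1 ranked 1487 from the highest, whereas that of SMAX1 was at percentile 54.1.

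**Figure D3:**
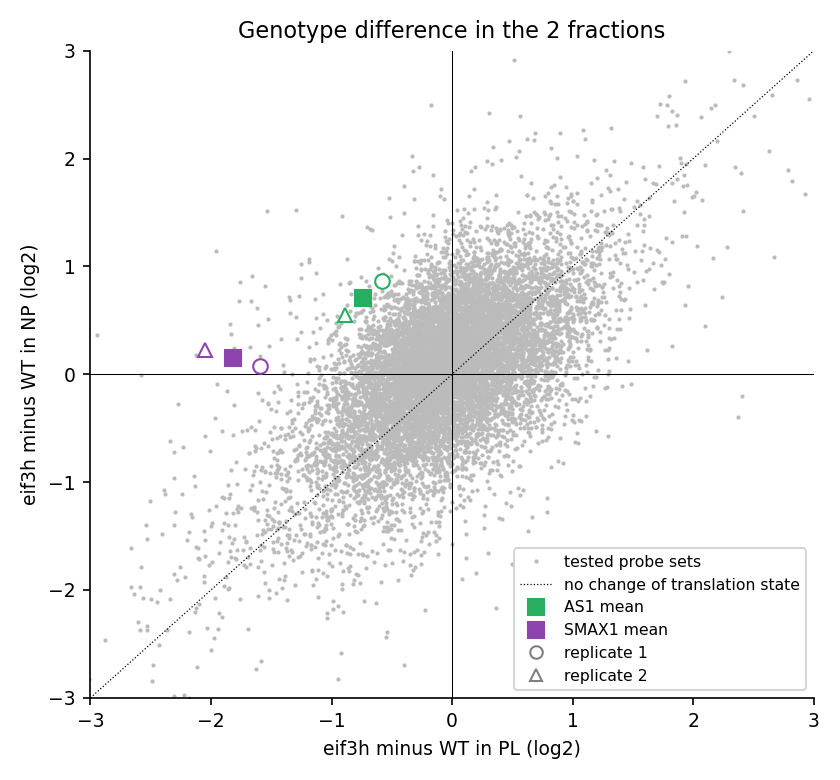
Genotype difference (eif3h minus WT, log2) in PL on the x axis and in NP on the y axis for all tested probe sets in grey and for AS1 and SMAX1 as a mean (square) and per replicate (open symbols), with 66 probe sets outside the axes. AS1 lies at -0.74 in PL and 0.71 in NP, and SMAX1 at -1.82 in PL and 0.15 in NP.

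The genotype difference averaged over PL and NP, and the translation state averaged over the genotypes, are built from the same signals by which the genes were chosen and are given without a test. Each array was scaled to the same average, so the mean of the fractions is not the total amount of the mRNA in the tissue. For SMAX1 the averaged genotype difference was -0.76 in replicate 1 and -0.91 in replicate 2, with a mean of -0.83 (SD 0.11, n = 2) that averages the -1.82 of PL and the 0.15 of NP. For AS1 it was 0.14 in replicate 1 and -0.17 in replicate 2, with a mean of -0.01 (SD 0.22), since the PL and NP differences were of similar size and opposite sign. The averaged translation state of AS1 was -0.61, which combines the -1.33 of eif3h and the 0.11 of WT. That of SMAX1 was 0.16, which combines -0.83 in eif3h and 1.14 in WT.

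Other genes of the same pathways could be followed only in part. Of 115 loci in 7 lists of shoot development and of karrikin and strigolactone signalling, 10 had a named probe set in the platform annotation and 8 of these were tested. The lists of AS1 partners with KNOX and BELL homeobox genes, of karrikin and strigolactone signalling, of strigolactone synthesis and of HSP101-type ATPases had 0 named members there, and 0 genes with a MYB number were named. Of the 8 tested mRNAs 4 had a positive and 4 a negative change of translation state, with a median of 0.06, compared with -0.12 over all tested probe sets. By limma 0 of them passed after adjustment over all tested probe sets, compared with 0.0528% of all probe sets. An unadjusted p under 0.05 was reached by 0 of the 8, compared with 14.5% of all, and 0 passed in the fit with gradient blocks.

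Among the factors of leaf polarity, the homeodomain leucine zipper gene PHV had a change of -0.10 (SE 0.29), the YABBY genes YAB3 and YAB5 of -0.32 (SE 0.43) and 0.38 (SE 0.35), and the microRNA processing factor SE of 0.43 (SE 0.37). AGO7 and CLV3 were below the filter on signal. Of the meristem regulators, the phosphatase gene POL had a change of -0.56 (SE 0.33) and the SAND-domain gene ULT1 of 0.23 (SE 0.35). Of the leaf growth regulators, AN had a change of 0.52 (SE 0.31), with 0.53 and 0.51 in the replicates, and the bHLH gene SPT of -0.17 (SE 0.44). The replicates of YAB3, YAB5, SE, ULT1 and SPT differed in sign. These values lay between -0.56 and 0.52, compared with -1.44 for AS1 and -1.97 for SMAX1. AS1 and SMAX1 were chosen for their loss and named through the study's list of changed genes, and the genes given here were not. The gap therefore follows at least in part from that choice.

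A further 4 loci of the lists were named only because the study listed them as changed in translation or in transcript level in eif3h. Their values are therefore a description and no independent evidence. KNAT1, the KNOX gene repressed by AS1, had PL signals of 646.5 and 512.2 in eif3h, against 412.4 and 325.1 in WT. Its NP signals were 830.3 and 530.1 in eif3h, against 219.7 and 172.3 in WT. KNAT1 was thus higher in eif3h in both fractions without overlap, as were 13% of all tested probe sets, by 0.65 in PL and 1.77 in NP on the log2 scale, and its change of translation state was -1.12 (-1.27 in replicate 1 and -0.97 in replicate 2). RDR6, an RNA-dependent RNA polymerase of the small RNA pathway of leaf polarity, had a change of -1.14, with -0.46 in PL and 0.69 in NP. Both SKP1 and RBX1, subunits of the SCF ubiquitin ligases in which F-box proteins such as MAX2 work, had positive changes. SKP1 had PL signals of 12981.6 and 10521.4 in eif3h, against 8466.3 and 9309.3 in WT. Its NP signals were 3621.5 and 3388.4 in eif3h, against 5224.7 and 5624.2 in WT. The change of SKP1 was 1.03, with 0.40 in PL and -0.63 in NP, so the NP difference was the larger part. RBX1 had a change of 1.21, with 0.38 in PL and -0.83 in NP.

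The profiles of AS1 and SMAX1 over the 8 arrays were not alike. The Pearson r of their log2 signals was 0.279, and SMAX1 ranked 3952 among the other tested probe sets in its likeness to AS1. The arrays share gradients and replicate days, so these correlations are a description. The genes closest to each member were picked by r over these same arrays, so the pattern they share with it follows largely from that choice. The named genes closest to AS1 were AT5G44090 (r = 0.982), AT2G30350 (0.909), ATMAP65-6, a microtubule-associated protein (0.908), AT1G19710 (0.906) and AT2G17300 (0.90). Their changes of translation state were between -0.90 and -0.56 (SE 0.289 to 0.375), smaller in size than that of AS1. In each of them the mean PL difference was negative and the mean NP difference positive. Closest to SMAX1 were AT1G22060 (r = 0.955), LPR2, a multicopper oxidase of the root response to low phosphate (0.948), NADK2, the plastid NAD kinase (0.945), SAT32 (0.945) and Mfl1 (0.919). Their PL differences were between -1.22 and -0.65 and their NP differences between -0.16 and 0.18. NADK2 was named through the gene list of the study, and the other 9 through the platform annotation.

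**Figure D4:**
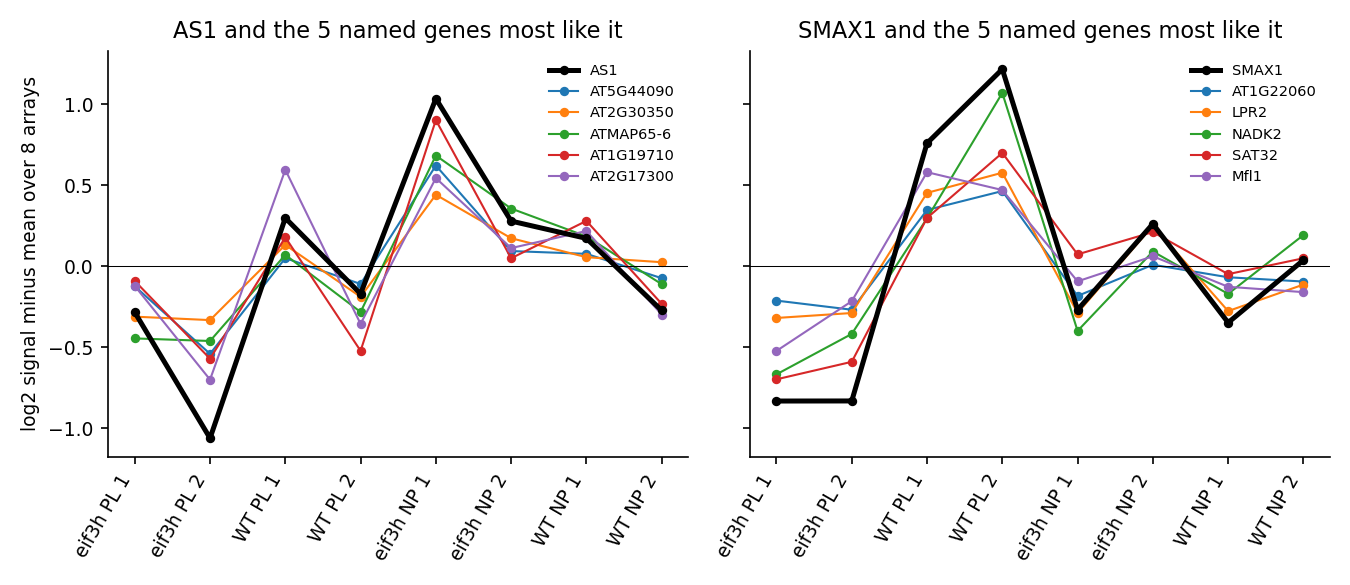
Log2 signal minus the mean over the 8 arrays for AS1 (left, black) and SMAX1 (right, black) with the 5 named genes of highest Pearson r to each. In the mean of the replicates, AS1 and its neighbours are low in PL of eif3h and high in NP of eif3h. SMAX1 and its neighbours are low in PL of eif3h and high in PL of WT. Single arrays can depart from this, as AT2G17300 is highest in PL of WT in replicate 1 (0.60). AS1 and its neighbours also lie higher in replicate 1 than in replicate 2 in every group.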

How the data were processed

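The values deposited by the authors are linear signal intensities from MAS 5.0, scaled array by array, and were used here as log2 without an offset. The 64 control probe sets were left out, and probe sets in the upper 50% by mean log2 signal were tested. Detection calls and the total RNA arrays were not used here. In R 4.3.3 with limma 3.58.1 (lmFit, eBayes with a trend, Benjamini-Hochberg over all tested probe sets, two-sided), the model of all 8 arrays had a term for each of the 4 groups and a replicate block. The averages over fractions and over genotypes were also fitted, on gradient means for the first, but as they share the signals that chose the genes, their tests are not reported. The threshold was an adjusted p under 0.05.

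The replicate number marks a preparation day per the study's methods, and per the file headers a scan day and a scanner. Between groups, same-numbered arrays deviated together (r of 0.326 to 0.680 over probe sets), so the numbers pair the samples. The number of arrays limits the precision.

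Of the probe sets, 13436 had 1 gene in the platform table matched to RefSeq (TAIR10.1, names only) and 359 were named through the study's gene list. The members and lists were chosen with earlier results of these data known. Named genes were the members, TIF3H1, up to 3 genes of each list with the smallest unadjusted p, KNOX genes and the 5 named genes of highest r to each member. The other list genes were named after their values were seen. Fits were tested on simulated data. Alternatives were quantile normalization, median centring, an offset of 16, no filter, no trend, other blocks and leaving out each gradient.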

Additional observations from a re-analysis of the deposited data

Results flagged for a closer look

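For AS1 the genotype difference was negative in PL and positive in NP in both replicates, and the fractions differed by -1.44 on the log2 scale. For SMAX1 the difference was likewise negative in PL and positive in NP in both replicates, and the fractions differed by -1.97, although the NP value of SMAX1 changed sign with the scaling of the arrays. The difference between the fractions is the value for which both genes were chosen and was not tested.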

How the results depend on the processing

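The change of translation state was negative for both genes under every scaling, offset and left-out gradient. For both genes each eif3h gradient lay below each WT gradient, so leaving out 1 gradient could not change the sign. For AS1 it was -1.62 after quantile normalization, -1.08 after median centring and -1.43 with an offset, and -1.45 to -1.43 without 1 gradient. For SMAX1 it was -1.64, -1.61 and -1.90 in the same settings, and -2.23 to -1.70 without 1 gradient. The median change of all tested probe sets was 0.24 after median centring, compared with -0.12. Relative to it AS1 was at -1.32 in both, because centring shifts all probe sets of an array alike. After quantile normalization the values relative to the median were -1.62 for AS1 and -1.64 for SMAX1. The NP difference of AS1 was 0.94 after quantile normalization and 0.46 after median centring. That of SMAX1 turned to -0.0031 and to -0.10 under the same settings. The share carried by PL, an alternative added after seeing the data, was 42.3% and 57.8% for AS1 and 100.2% and 106.2% for SMAX1 after these scalings, and ranged from 40.2% to 61.9% for AS1 and from 89.1% to 95.4% for SMAX1 without 1 gradient. The averaged translation state was -0.28 for AS1 and 0.49 for SMAX1 after median centring, and that of AS1 was -0.61 without the replicate block. The averaged genotype difference of SMAX1 was -1.04 to -0.62 without 1 gradient, in fits that also had no replicate block. This range therefore holds shifts between the replicates as well as the effect of the left-out gradient. In this balanced design the filter on signal and the replicate block cannot move an average of a gene. The averaged translation state of AS1 thus stayed at -0.61 and the averaged genotype difference of SMAX1 at -0.83, which says nothing on their stability. Over all probe sets the calls of changed translation state in limma numbered 6 (2 higher, 4 lower), compared with 1 (lower) after quantile normalization, 40 (35 higher, 5 lower) after median centring, 186 (116 higher, 70 lower) with the gradient block and 1 to 885 without 1 gradient. There were 0 calls with no filter, with no variance trend and without the replicate block, where 2384, 1641 and 862 had an unadjusted p under 0.05. The cause of these shifts was not tested. Both probe sets lay above their array medians on all arrays, and 2 gradients per genotype limit what can be told apart.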
